A study of Homo sapiens with 372 samples.

Results

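The SLC25 genes encode the mitochondrial carriers, and they were taken here as every row of the expression table whose symbol is SLC25A followed by a number. This rule found 38 rows of 9664, which stand for 37 genes. SLC25A6, an ADP/ATP carrier gene of the pseudoautosomal region, is listed in 2 rows with identical values for its X and Y copies and was counted once. All 37 genes passed the detection limit of the table (a value above 0 in more than 30% of cells in 1 condition or more), as did 9655 of all rows. Of the 37 genes, 28 passed it in every condition, and 5 (SLC25A18, SLC25A20, SLC25A28, SLC25A30 and SLC25A42) were at or under it in the control and passed through a treatment. The other 11 of 48 carriers on the list of roles used here have no row in the expression table and were not analysed.

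The cells were A2780, an established human ovarian cancer line, measured one by one with Smart-seq2 (full-length copies of polyA-tailed RNA, with no strand kept) after capture on a Fluidigm C1 chip. The control cells (Ctrl) had no drug. Paclitaxel, which stabilizes microtubules, was given at 5 nM for 16 h (Pac16h) or 48 h (Pac48h), celecoxib, a cyclooxygenase inhibitor, at 75 µM for 2 h (Cele2h) or 16 h (Cele16h), and both drugs together at these doses for 16 h (PacCele16h). The table holds 46, 56, 53, 63, 61 and 59 cells of these conditions in this order, 338 in all, and no 2 cells had identical values. No replicate culture is named for any condition, and in the labels the cells of each condition carry a prefix that no other condition has. Cells are therefore not replicates of a condition, the culture or capture and the drug cannot be told apart, and no test or p-value was made. The ± values below are SDs over cells.

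SLC25 carriers sit mostly in the inner mitochondrial membrane, which is otherwise tight to ions and metabolites, and each swaps or imports a small set of substrates between cytosol and matrix. The ADP/ATP carriers send out the ATP made by oxidative phosphorylation, the phosphate carrier brings in phosphate for the same reaction, and further members move carboxylic acids, amino acids, nucleotides, vitamins and their cofactors, iron or glutathione. The carriers are made in the cytosol and inserted into the inner membrane by the TIM22 complex, after passage through the TOM pore and the small TIM chaperones.

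Promoter sequences of 3 members are shown, since the results below turn on SLC25A21 and SLC25A36, the 2 carriers higher than the control with both drugs by over 1.5-fold on both scales described below, and on 1 of the 2 most abundant ones (SLC25A5). Each line is the 250 bases before the RefSeq start on GRCh38.p14, 5′ to 3′ on the strand of the gene, with the matches to searched motifs in capitals: SLC25A21 at chr14:37172607-37172856, minus strand, SLC25A36 at chr3:140941586-140941835, plus strand, and SLC25A5 at chrX:119468194-119468443, plus strand.
SLC25A21: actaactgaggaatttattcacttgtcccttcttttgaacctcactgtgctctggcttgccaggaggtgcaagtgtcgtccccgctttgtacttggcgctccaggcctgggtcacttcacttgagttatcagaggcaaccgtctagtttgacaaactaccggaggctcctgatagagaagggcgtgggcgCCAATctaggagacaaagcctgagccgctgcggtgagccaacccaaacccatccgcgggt
SLC25A36: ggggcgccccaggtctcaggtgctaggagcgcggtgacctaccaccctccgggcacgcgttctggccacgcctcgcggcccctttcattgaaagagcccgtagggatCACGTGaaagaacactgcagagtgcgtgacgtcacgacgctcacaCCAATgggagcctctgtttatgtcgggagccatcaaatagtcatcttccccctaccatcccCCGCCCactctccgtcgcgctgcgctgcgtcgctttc
SLC25A5: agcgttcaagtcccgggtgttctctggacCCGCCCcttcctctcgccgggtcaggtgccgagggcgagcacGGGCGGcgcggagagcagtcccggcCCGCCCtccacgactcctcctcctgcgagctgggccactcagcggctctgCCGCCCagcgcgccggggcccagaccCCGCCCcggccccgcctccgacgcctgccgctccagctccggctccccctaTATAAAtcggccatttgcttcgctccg
The motifs searched on both strands were the CCAAT box (CCAAT), the E-box (CACGTG), the GC box (GGGCGG), the TATA box (TATAAA), the NRF1 site and the GABPA core (CCGGAAG), and these letters do not overlap each other in the 3 sequences. SLC25A21 held 1 CCAAT box, SLC25A36 a CCAAT box, an E-box and a GC box, and SLC25A5 held 5 GC boxes and a TATA box. Among the 32 members with an entry in the promoter table, 15 (46.9%) held a CCAAT box, against 33.0% of all 27305 promoters and 36.5% of the 7582 promoters of genes in the expression table. A GC box stood in 23 members (71.9%), against 42.3% of all promoters and 69.0% of those of genes in the expression table. The E-box was found in 6 members, or 18.8%, against 6.49% of all and 9.30% of these. The TATA box was found in 3 members (9.38% against 11.1% and 4.75%), the GABPA core in 7 (21.9% against 8.82% and 18.4%) and the NRF1 site in 2 (6.25% against 5.53% and 12.3%). The GC content of these windows was 54.8% for SLC25A21, 62.8% for SLC25A36 and 73.6% for SLC25A5, with a median of 68.6% over the members and 58% over all promoters. A match is a description of the letters and no evidence of binding.

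Levels are given as E-values, log2(N/10 + 1), where N is the TPM of a gene normalized to a spike-in RNA in the same cell. TPM is per transcript length, so levels of different carriers can be set side by side. As deposited, E-values carry the total transcript level of a cell relative to the spike-in. Relative to the control, the median total was lower by 0.99 (log2) at Pac16h, 0.64 at Pac48h, 0.76 at Cele2h and 1.52 at Cele16h, and higher by 0.49 at PacCele16h. For this reason each difference is also given at the same total, with every cell rescaled to the median total of the control cells. A difference of mean E-values over log2 of 1.5 (0.585) counts as past the limit, a descriptive limit and not a test. The read depth behind each cell is unknown, and the number of genes detected stands in for it. Between 4746 and 8499 genes were detected per cell, with a median of 6630 in the control and medians of 6126 to 6351 in the treatments. A lower detection under treatment thus goes with fewer genes detected in the median cell. As a check of the cell label, KRT18, a keratin of epithelial cells, was above 0 in 23.9% to 36.5% of cells. The other 7 epithelial or ovarian markers looked for (KRT8, KRT19, EPCAM, CDH1, PAX8, WT1 and MUC16) have no row in the expression table, so the identity of the cells rests on the label. VIM, a filament gene common in cultured lines, was above 0 in 62.5% to 86.8%. The immune marker LYZ had mean E-values of 0.11 to 0.24 and was above 0 in 37.0% to 60.7% of cells, more than KRT18. The endothelial markers looked for (PECAM1 and VWF) have no row in the expression table. The fibroblast marker COL1A2 had 0.20 to 0.96 and was above 0 in 10.7% to 32.8% of cells, a range that overlaps that of KRT18.

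The 37 carriers together made up a similar part of the signal in each condition, and a few members made up most of the family. Their summed signal was 0.426% of the total in the median control cell and between 0.383% (Cele2h) and 0.435% (PacCele16h) in the treated ones, with single cells from 0.168% to 0.661%. SLC25A3, the phosphate and copper carrier, held 38.2% of the pooled family signal in the control, SLC25A5, the ADP/ATP carrier of dividing cells, 26.5%, and SLC25A39, a glutathione carrier, 9.14%. SLC25A3 and SLC25A5 together held 64.7% in the control, 71.5% at Pac16h and 57.8% at Cele16h, with the other conditions between 64.1% and 65.0%. SLC25A39 took 5.82% at Pac16h and 11.9% at Cele16h. With both SLC25A6 rows summed, that gene held 4.90% in the control and 3.56% to 6.79% under treatment. Mean control E-values of the members ranged from 7.80 (SLC25A3) to 0.03 (SLC25A30), and 3 members (SLC25A3, SLC25A5 and SLC25A6) were detected in every cell.

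**Figure D1:**
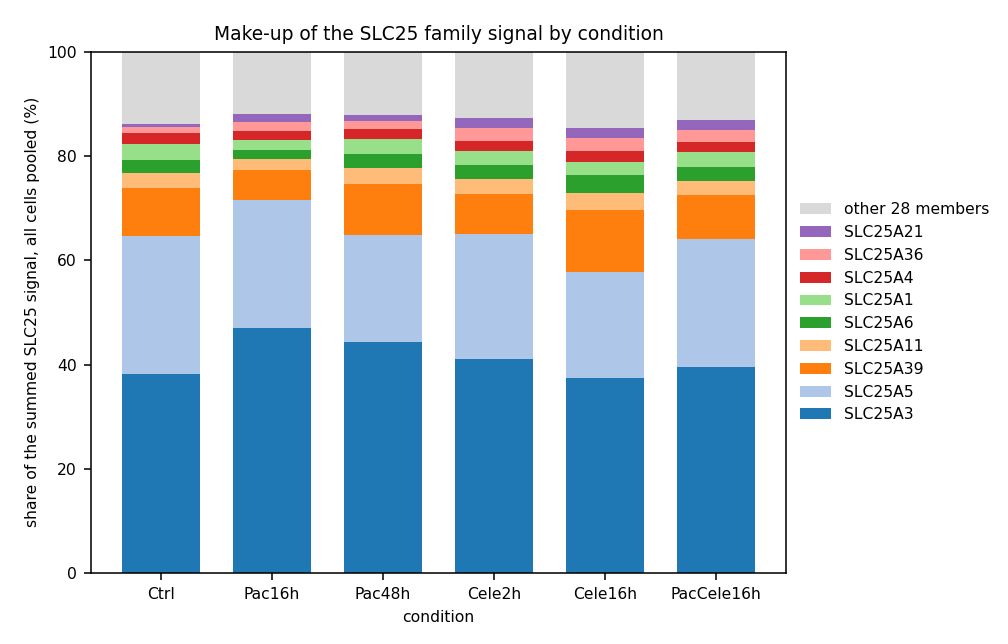
Stacked bars give the share (%) of each carrier in the summed linear SLC25 signal with all cells of a condition pooled, for 9 members and the other 28 together (SLC25A6 as 1 row). SLC25A3 and SLC25A5 fill 57.8% to 71.5% of each bar, and the share of SLC25A39 is 5.82% at Pac16h and 11.9% at Cele16h.

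On the deposited scale most carriers were lower with a single drug and higher with both, as were most genes of the table. At Pac16h, 19 of the 37 members (51.4%) were past the limit downwards, against 37.3% of all genes, and 0 upwards, against 0.0932%. At Pac48h it was 10 downwards (27.0% against 26.6%) and 0 upwards (against 0.922%). At Cele2h, 12 were lower (32.4% against 25.7%) and 1 was higher (2.70% against 1.12%). At Cele16h, 20 were lower (54.1% against 43.9%) and 0 higher (against 0.383%). With both drugs, 9 were higher (24.3% against 30.4%) and 0 lower (against 1.76%). The median difference over the members was -0.60 at Pac16h, -0.42 at Pac48h, -0.42 at Cele2h, -0.72 at Cele16h and 0.29 at PacCele16h, beside -0.41, -0.26, -0.26, -0.48 and 0.33 over all genes. In 21 members (56.8%) the mean was below the control with each of the 4 single-drug treatments and above it with both drugs, as in 50.7% of all genes. The shares of members past the limit downwards lay above those of all genes at Pac16h, Cele2h and Cele16h and close to them at Pac48h. With both drugs the share upwards lay below that of all genes (24.3% against 30.4%).

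At the same total most members were within the limit in each treatment, and many of those past it were so in 1 treatment alone. At Pac16h, 6 members were lower (16.2% against 13.2% of all genes) and 1 higher (2.70% against 1.89%). At Pac48h, 2 were lower (5.41% against 8.08%) and 1 higher (2.70% against 4.69%). At Cele2h, 4 were lower (10.8% against 10.9%) and 2 higher (5.41% against 4.18%). At Cele16h, 3 were lower (8.11% against 10.1%) and 3 higher (8.11% against 8.87%), and with both drugs 2 were lower (5.41% against 7.64%) and 2 higher (5.41% against 7.87%). With this processing the shares lie near those of all genes, so the number of members past the limit is not read as a feature of the family. Other settings moved the counts in both directions. In cells with 5500 to 7000 genes detected, 27.0% of members were lower at Pac16h against 13.1% of all genes. Another common total gave 2.7% lower against 5.78% to 8.12% in 4 of the treatments. The median difference was -0.28, -0.07, -0.15, -0.08 and -0.02 in this order, beside -0.09, 0.00, -0.03, 0.02 and 0.02 over all genes. Of the 37 members, 23 were past the limit in none of the 5 treatments, 11 were below the control in all 5, and 4 (SLC25A21, SLC25A36, SLC25A40 and SLC25A42) were above it in all 5. All 5 differences use the same control cells. The matching shares of all genes were not computed, so these counts over the 5 treatments are not read as a feature of the family.

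**Figure D2:**
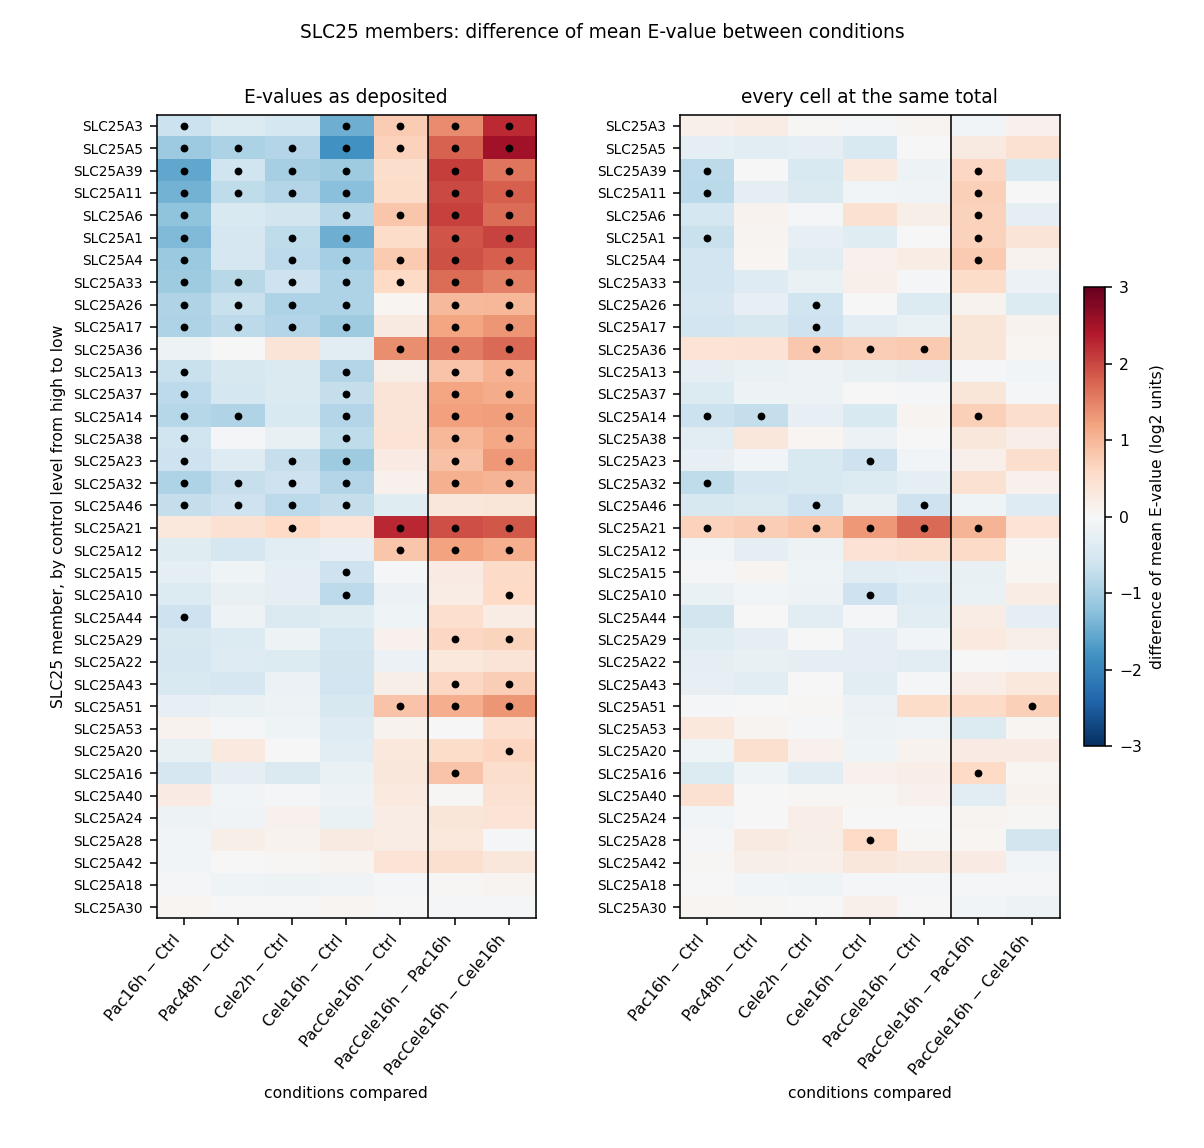
Colours give the difference of mean E-value (log2 units) for 36 SLC25 members, ordered by control level, in 5 comparisons with the control and 2 between treatments, on the deposited scale (left) and with every cell at the same total (right), and dots mark differences past 0.585. SLC25A21 is past the limit upwards in all 5 comparisons with the control at the same total, while 23 members have no dot there.

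SLC25A21, which exchanges oxoadipate and oxoglutarate in the breakdown of lysine and tryptophan, had the highest difference of all members at the same total in each of the 5 treatments. It lies on chr14:36677921-37172606, minus strand. In the control its E-values ran from 0 to 5.16 with a median of 1.22, and 27 of 46 cells (58.7%) had a value above 0. The median was 1.79 at Pac16h (highest cell 5.47), 2.33 at Pac48h (4.43), 2.35 at Cele2h (5.38), 1.95 at Cele16h (4.48) and 4.12 at PacCele16h (7.16), and every condition had cells at 0. The cells with both drugs were the highest, and 50 of 59 of them lay above the control median as deposited, against 31 of 56 cells of Pac16h. The deposited mean was 1.45 ± 1.51 in the control, 1.77 ± 1.62 at Pac16h, 1.89 ± 1.57 at Pac48h, 2.05 ± 1.80 at Cele2h, 1.85 ± 1.32 at Cele16h and 3.71 ± 1.83 with both drugs. The differences as deposited were 0.33, 0.45, 0.61, 0.40 and 2.27, and SLC25A21 was the 1 member past the limit upwards in a single-drug condition. With every cell at the same total they were 0.69, 0.74, 0.84, 1.3 and 1.71, the last of which is 3.27-fold and the 13th highest of 9655 genes. It was detected in 67.9%, 69.8%, 66.7%, 78.7% and 88.1% of the cells of the 5 treatments, with an exact 95% interval, for counting error only, of 77.1% to 95.1% at PacCele16h and 43.2% to 73.0% in the control.

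The value of SLC25A21 may hold reads of other genes. Its last exon shares 1442 of 4757 exonic bases (chr14:36677921-36679362) with PAX9, a transcription factor gene on the opposite strand, and Smart-seq2 does not tell the strands apart. A further 326 bases are shared with the antisense RNA gene SLC25A21-AS1, which was not analysed here. Shared bases make up 37.2% of the exonic bases in all. PAX9 was measured in the same cells and was detected in 25 of the 27 control cells with SLC25A21. Both genes were above 0 in 36 of 56 cells at Pac16h, 32 of 53 at Pac48h, 36 of 63 at Cele2h, 43 of 61 at Cele16h and 42 of 59 at PacCele16h. PAX9 differed from the control at the same total by 0.02, -0.07, -0.07, 0.62 and 0.22 in the 5 treatments, against 0.69 to 1.71 for SLC25A21. As deposited PAX9 differed by -0.31, -0.23, -0.25, -0.15 and 0.70. In every condition the mean of SLC25A21 at the same total was higher in cells with PAX9 than in those without. It was 1.96 against 0.33 in the control and 3.54 against 2.08 at PacCele16h. Pearson correlations of the 2 genes over cells were 0.29 to 0.56. In the 14 control cells without PAX9, SLC25A21 had a mean of 0.33 ± 0.90 at the same total. In the 9, 14, 23, 9 and 15 treated cells without PAX9 it was 0.63 ± 1.45, 1.18 ± 1.85, 0.52 ± 0.98, 1.26 ± 1.65 and 2.08 ± 1.88, higher by 0.30, 0.85, 0.19, 0.93 and 1.75. The difference at PacCele16h was 1.75 in these few cells and 1.71 in all cells, and at Pac16h and Cele2h it was within the limit. Reads of the shared bases can be assigned to either gene, so a cell at 0 for PAX9 may still hold its RNA. Whether such reads make up the differences was not tested. SLC25A21 is reported as uncertain for this reason.

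**Figure D3:**
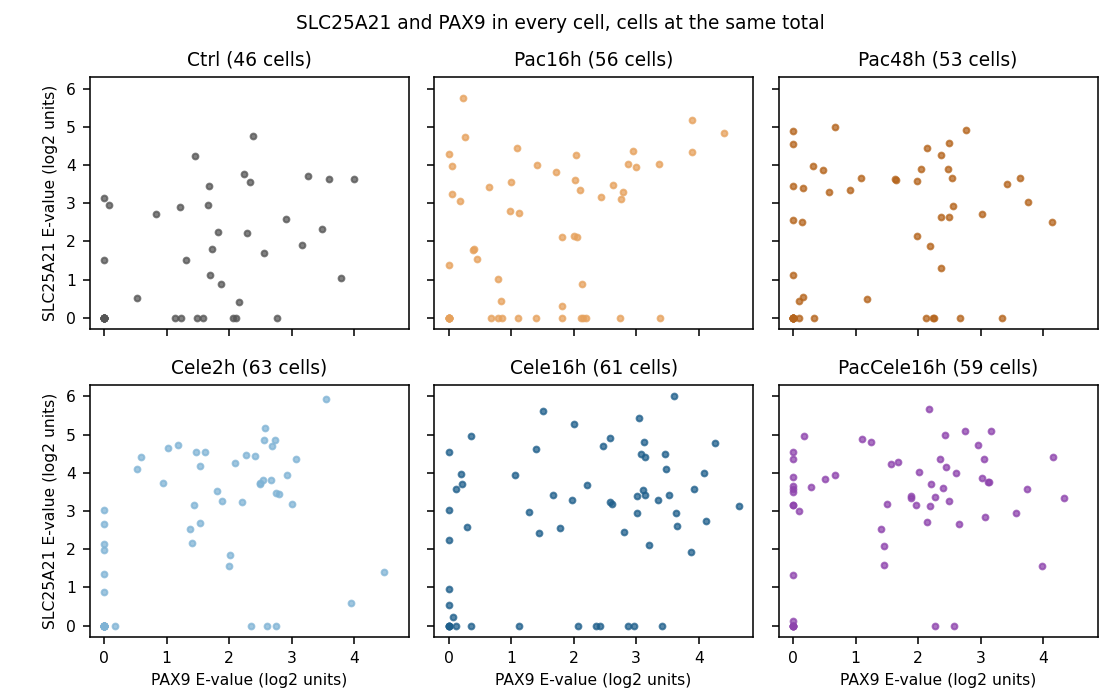
Each point is a cell, with the E-value of PAX9 on the horizontal and of SLC25A21 on the vertical axis (log2 units, every cell at the same total) in the 6 conditions. Most cells with SLC25A21 also have PAX9 (25 of 27 in the control), and at PacCele16h 10 cells have SLC25A21 and no PAX9.

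SLC25A36, a pyrimidine nucleotide carrier that supplies the matrix for mitochondrial DNA and RNA synthesis, was above the control in all 5 treatments at the same total. The gene lies on chr3:140941830-140980995, plus strand, and shares no exonic base with another annotated gene. Its control cells ran from 0 to 5.07 with a median of 2.77 as deposited, and 41 of 46 (89.1%) had a value above 0. Medians were 2.65 at Pac16h (highest cell 4.54), 2.47 at Pac48h (4.82), 3.04 at Cele2h (5.50), 2.22 at Cele16h (4.93) and 4.54 at PacCele16h (7.12), again with cells at 0 in each. As deposited, 47 of 59 cells with both drugs and 38 of 63 at Cele2h lay above the control median, and 22 of 61 at Cele16h. The deposited mean of 2.50 ± 1.36 in the control stood beside 2.35 ± 1.35, 2.48 ± 1.33, 2.90 ± 1.5, 2.20 ± 1.35 and 3.89 ± 1.84. Deposited differences were -0.16, -0.02, 0.40, -0.31 and 1.39. The sign thus turned between the scales for both paclitaxel conditions and for Cele16h, where the differences at the same total were 0.42, 0.44 and 0.73, with 0.80 at Cele2h and 0.78 at PacCele16h. Its detection hardly moved, from 87.5% to 96.7% of cells.

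**Figure D4:**
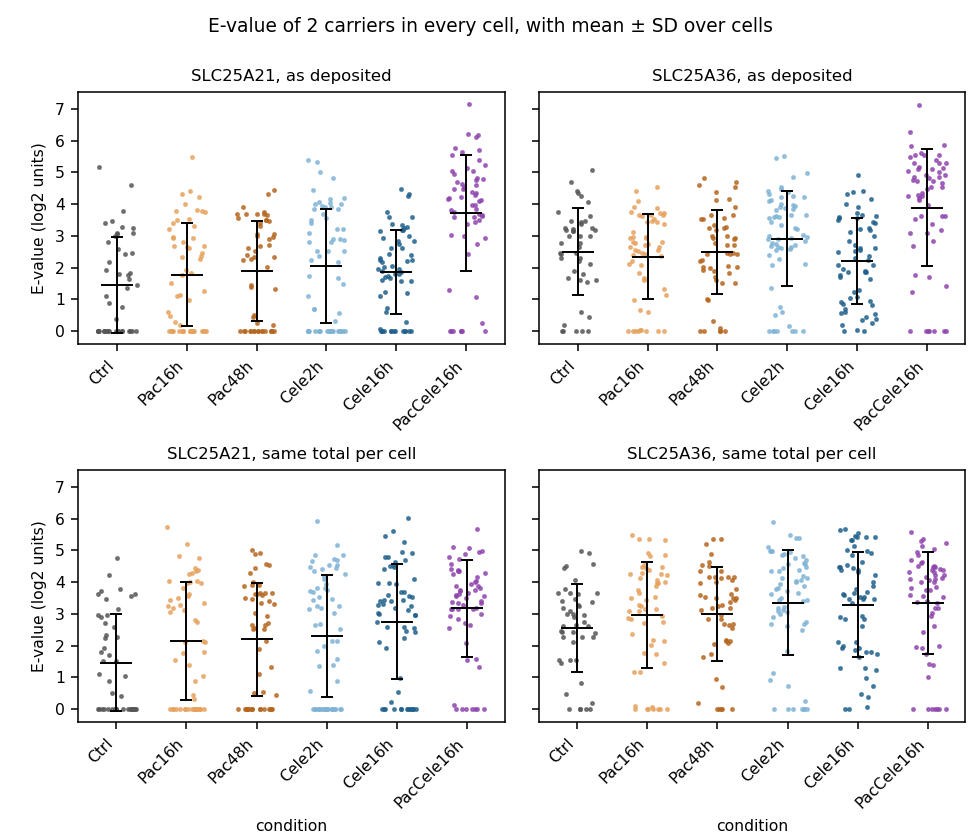
Points are single cells, with the mean and SD over cells as black bars, for SLC25A21 and SLC25A36 in the 6 conditions (E-value, log2 units), as deposited above and at the same total below. SLC25A21 has means of 2.15 to 3.17 at the same total against 1.46 in the control, and SLC25A36 means of 2.97 to 3.35 against 2.55.

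SLC25A33, the other pyrimidine nucleotide carrier, had a control mean of 2.97 ± 0.83 and was lower by 1.08 at Pac16h, 0.82 at Pac48h, 0.63 at Cele2h and 0.91 at Cele16h as deposited, and higher by 0.59 with both drugs. It was within the limit everywhere at the same total, from -0.57 to 0.16. Within a cell the ratio of these carriers does not depend on the scaling. The median log2 ratio of SLC25A36 to SLC25A33 over cells with both was -0.39 in the control (quartiles -0.94 and 0.73) and 0.84, 0.74, 1.17, 0.38 and 0.77 in the 5 treatments, so SLC25A36 was the higher in the median treated cell and SLC25A33 in the median control cell. SLC25A36 exceeded SLC25A33 in 15 of 46 control cells and in 32 of 61 (Cele16h) to 41 of 63 (Cele2h) treated cells.

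The other cofactor carriers were mostly lower as deposited. SLC25A26 imports S-adenosylmethionine, the methyl donor, and had a control mean of 2.84 ± 1.33 (median 3.06, highest cell 4.77). It was 1.93 ± 1.55 at Pac16h, 2.17 ± 1.58 at Pac48h, 1.91 ± 1.47 at Cele2h, 1.92 ± 1.32 at Cele16h and 2.91 ± 2.15 with both drugs. Its difference at the same total was past the limit at Cele2h (-0.59) and was 0.00 at Cele16h, and it shares 2669 exonic bases with LRIG1 on the opposite strand. SLC25A17, a carrier of coenzyme A, FAD and NAD in peroxisomes, had 2.55 ± 1.5 in the control (median 3.00, highest cell 4.88) and 1.63 ± 1.48, 1.76 ± 1.43, 1.67 ± 1.47, 1.49 ± 1.28 and 2.82 ± 1.91 in the treatments. Its deposited difference was past the limit in all 4 single-drug conditions (-0.93, -0.80, -0.88 and -1.06) and at the same total at Cele2h (-0.62). SLC25A32, which brings in folate or FAD, went from 1.65 ± 1.39 (median 1.88, highest cell 4.38) to 0.72 ± 0.97, 0.95 ± 1.17, 1.03 ± 1.13, 0.78 ± 0.97 and 1.79 ± 1.68. It was past the limit on both scales at Pac16h (-0.94 and -0.76), and 80.8% of its exonic bases are shared with other annotated genes, so its values are uncertain.

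SLC25A51, the NAD carrier of the inner membrane, was low in the control, at 0.83 ± 1.14, with 21 of 46 cells above 0. It was 0.58 ± 0.94, 0.63 ± 0.93, 0.67 ± 1.02 and 0.36 ± 0.71 with single drugs and 1.68 ± 1.83 with both, where the highest cell reached 5.13. At the same total it was the member with the highest difference between both drugs and celecoxib alone at 16 h (0.72), and 0.54 against the control. SLC25A16 and SLC25A42, linked to coenzyme A, stayed within the limit against the control on both scales, with differences from -0.51 to 0.41 as deposited. Of the 9 cofactor and nucleotide carriers, 5 were past the limit downwards in each single-drug condition as deposited, and 2, 1, 3 and 1 at the same total. Over all genes 37.3%, 26.6%, 25.7% and 43.9% were lower as deposited in these conditions, and 13.2%, 8.08%, 10.9% and 10.1% at the same total. With so few members the counts are not read as a feature of this group.

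SLC25A3 was lower than the control in every single-drug condition as deposited and within 0.21 of it in all 5 treatments at the same total. The gene lies on chr12:98593591-98606379, plus strand. As deposited its control cells ran from 3.98 to 8.72 with a median of 7.95. The median was 7.22 at Pac16h (4.62 to 9.53), 7.45 at Pac48h (5.27 to 8.70), 7.24 at Cele2h (5.67 to 8.82), 6.42 at Cele16h (4.51 to 7.83) and 8.54 at PacCele16h (6.92 to 10.9). None of the 61 cells at Cele16h reached the control median, whereas 42 of 59 with both drugs lay above it, and the ranges still overlap. The mean was 7.80 ± 0.79 in the control and 7.15 ± 0.90, 7.38 ± 0.84, 7.27 ± 0.58, 6.34 ± 0.73 and 8.57 ± 0.80 in the treatments. The deposited difference of -1.46 at Cele16h and 0.77 at PacCele16h became -0.07 and 0.07 at the same total, and the other 3 were 0.16, 0.21 and 0.05 there.

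SLC25A5 (chrX:119468422-119471396, plus strand) ran from 2.53 to 8.75 in the control with a median of 7.37. Its median was 6.09 at Pac16h (3.75 to 8.99), 6.50 at Pac48h (0.37 to 7.53), 6.33 at Cele2h (1.82 to 8.75), 5.60 at Cele16h (2.97 to 6.90) and 7.87 at PacCele16h (5.66 to 9.86). As with SLC25A3, no cell at Cele16h lay above the control median, and 46 of 59 with both drugs did. The mean was 7.17 ± 1.02 in the control and 6.08 ± 1.03, 6.23 ± 1.17, 6.30 ± 1.00, 5.34 ± 1.01 and 7.86 ± 0.88 in the treatments. Deposited differences were -1.08, -0.94, -0.87, -1.83 and 0.69, and those at the same total -0.28, -0.33, -0.30, -0.45 and 0.00. In the same cell SLC25A3 exceeded SLC25A5 by a median log2 ratio of 0.62 in the control and by 1.12, 1.10, 1.01, 0.89 and 0.88 in the treatments, with quartiles of 0.12 and 1.19 in the control. The genome holds 9 pseudogenes named for SLC25A5, 3 for SLC25A3 and 6 for SLC25A6, to which reads could also be assigned. Some other members have named pseudogenes too.

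SLC25A6 and SLC25A4, the ADP/ATP carriers of most tissues and of heart and muscle, were lower than SLC25A5. Each of the 2 rows of SLC25A6 had a control mean of 3.93 ± 0.73 (1.78 to 5.06, median 4.09). It was 2.73 ± 0.76 at Pac16h, 3.47 ± 0.80 at Pac48h, 3.38 ± 0.81 at Cele2h, 3.09 ± 0.68 at Cele16h and 4.77 ± 0.66 at PacCele16h, where 51 of 59 cells lay above the control median and 1 of 56 did at Pac16h. SLC25A6 was within the limit in all 5 treatments at the same total, from -0.52 at Pac16h to 0.45 at Cele16h. SLC25A4 had 3.41 ± 1.33 in the control, was lower by 1.12, 0.50, 0.79 and 1.01 with single drugs, higher by 0.79 with both, and within the limit at the same total (-0.56 to 0.23). The median cell had 9.48 times as much SLC25A5 as SLC25A6 per row in the control, 12.6 times at Pac16h and 5.18 times at Cele16h. All 3 ADP/ATP carriers were past the limit downwards at Pac16h and Cele16h and upwards at PacCele16h as deposited, and none of the 3 in any treatment at the same total. Over all genes 37.3% and 43.9% were lower at Pac16h and Cele16h as deposited, and 30.4% were higher at PacCele16h. SLC25A23, a calcium-regulated ATP-Mg and phosphate carrier, had 1.66 ± 1.37 in the control (median 1.41, highest cell 4.38) and 1.03 ± 0.99, 1.28 ± 1.29, 0.96 ± 1.15, 0.60 ± 0.94 and 1.90 ± 1.65 in the treatments. It was past the limit on both scales at Cele16h (-1.06 and -0.61), where 50.8% of cells had it, against 82.6% of the control cells, and SLC25A24, of the same kind, stayed between -0.19 and 0.21.

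Among the carriers of carboxylic acids, SLC25A11, the oxoglutarate carrier of the malate-aspartate shuttle, had 4.04 ± 1.01 in the control (0.40 to 5.76, median 4.27). It was 2.62 ± 1.28 at Pac16h (median 2.73, 0 to 4.99), 3.28 ± 1.39 at Pac48h (3.62, 0 to 5.33), 3.16 ± 1.45 at Cele2h (3.33, 0 to 5.46), 2.79 ± 1.11 at Cele16h (2.99, 0 to 4.72) and 4.59 ± 1.40 at PacCele16h (4.83, 0 to 6.58). At Pac16h, 4 of 56 cells lay above the control median and the difference was past the limit on both scales (-1.42 and -0.81), while at Cele16h the -1.25 as deposited was -0.08 at the same total. SLC25A1, the citrate carrier that feeds lipid synthesis, had 3.76 ± 1.58 in the control (median 4.18, highest cell 5.96) and 2.43 ± 1.29, 3.25 ± 1.36, 2.99 ± 1.43, 2.30 ± 1.25 and 4.32 ± 1.83 in the treatments. SLC25A1 too was past the limit on both scales at Pac16h (-1.33 and -0.66), and was -0.51 and 0.08 at Pac48h. SLC25A10, the dicarboxylate carrier, had 1.01 ± 1.27 in the control (median 0.08, highest cell 4.12) and 0.60 ± 0.81, 0.79 ± 1.10, 0.71 ± 1.00, 0.24 ± 0.54 and 0.83 ± 1.43. It was past the limit on both scales at Cele16h (-0.78 and -0.61) and was detected in 27.9% of cells there and in 30.5% with both drugs, against 50.0% in the control. A coding gene on the same strand covers 46.6% of the exonic bases of SLC25A10, so its reads cannot be assigned with certainty.

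SLC25A39 and SLC25A40 carry glutathione into the matrix. SLC25A39 ran from 3.51 to 7.11 in the control with a median of 5.86. Its median was 4.14 at Pac16h (2.44 to 6.03), 5.31 at Pac48h (0 to 6.54), 4.78 at Cele2h (1.65 to 6.82), 4.77 at Cele16h (2.25 to 6.33) and 6.38 at PacCele16h (0.52 to 7.99), with 2 of 56 cells above the control median at Pac16h and 16 of 53 at Pac48h. The means were 5.73 ± 0.75 in the control and 4.18 ± 0.87, 5.12 ± 1.17, 4.73 ± 0.93, 4.66 ± 0.87 and 6.26 ± 1.15. The difference was -1.55 at Pac16h as deposited and -0.78 at the same total, past the limit on both scales. At 48 h of paclitaxel it was -0.61 and -0.02, and at Cele16h -1.07 and 0.29, so the sign turned with the scale there. SLC25A40 had 0.44 ± 0.86 in the control and stayed within the limit, with 0.24 at Pac16h and 0.29 at PacCele16h as deposited, and 0.45 and 0.13 at the same total.

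The uncoupling-protein-like SLC25A14 was detected in a smaller share of cells in each treatment than in the control. The median number of genes detected was also highest in the control. Changes of detection over all genes were not computed, so lower detection is not read as particular to a carrier. It had 1.85 ± 1.45 in the control (median 2.48, highest cell 4.46), where 67.4% of cells had it. The mean was 1.00 ± 1.46 at Pac16h, 0.95 ± 1.40 at Pac48h, 1.40 ± 1.58 at Cele2h, 0.97 ± 1.40 at Cele16h and 2.23 ± 2.12 with both drugs, with 35.7%, 34.0%, 47.6%, 37.7% and 55.9% of cells. The exact 95% interval was 52.0% to 80.5% in the control, 23.4% to 49.6% at Pac16h and 21.5% to 48.3% at Pac48h, for counting error only. SLC25A14 was past the limit on both scales at Pac16h (-0.85 and -0.64) and Pac48h (-0.90 and -0.72). In the cells that had it the deposited mean was 2.74 in the control and 2.80 and 2.79 with paclitaxel for 16 and 48 h, and at the same total it was 2.75, 3.40 and 3.34, in each case over the cells with the transcript alone. SLC25A30, of the same kind, was near 0 throughout.

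**Figure D5:**
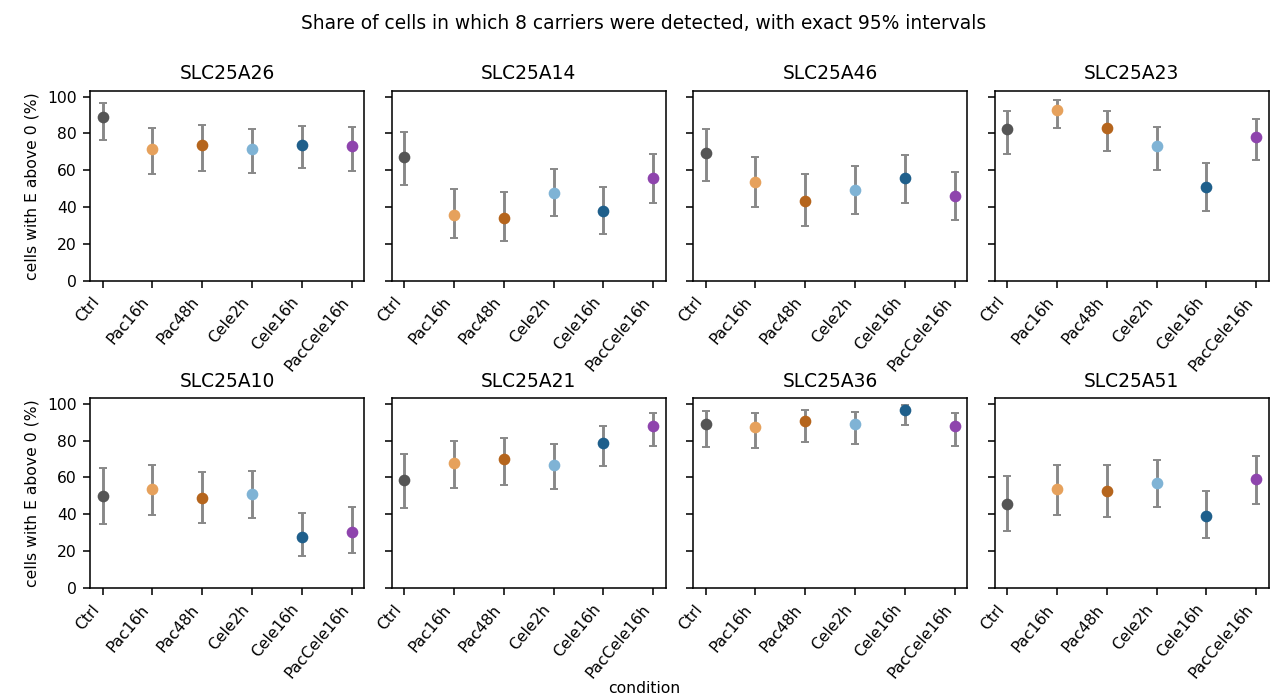
Points give the share of cells (%) with an E-value above 0 for 8 SLC25 carriers in the 6 conditions, and bars the exact 95% intervals, which cover counting error only. SLC25A26 lies at 89.1% in the control and 71.4% to 73.8% under treatment, SLC25A14 at 67.4% and 34.0% to 55.9% under treatment, and SLC25A21 at 58.7% and 66.7% to 88.1%.

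SLC25A46, an outer membrane member that acts in mitochondrial fission and fusion, had 1.47 ± 1.34 in the control (median 1.40, highest cell 4.02) and 0.76 ± 1.09, 0.86 ± 1.16, 0.69 ± 0.99, 0.75 ± 0.96 and 1.10 ± 1.56 in the treatments. It was 1 of 7 members whose deposited mean did not exceed the control with both drugs (-0.37). It was past the limit at the same total at Cele2h and at PacCele16h (both -0.61), and 45.8% of the cells with both drugs had it, against 69.6% in the control. SLC25A53, whose substrate is not assigned here, had 0.73 ± 1.09 in the control, 0.83 ± 1.17, 0.69 ± 1.09, 0.60 ± 1.03 and 0.35 ± 0.72 with single drugs and 0.85 ± 1.35 with both. SLC25A53 and SLC25A43, also without an assigned substrate, were within the limit against the control on both scales.

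The amino acid, acylcarnitine and iron carriers were low, with control means of 0.19 (SLC25A18) to 1.94 (SLC25A13), and at the same total SLC25A28 alone of them was past the limit against the control. SLC25A13 and SLC25A12, the aspartate-glutamate carriers of the malate-aspartate shuttle, differed at PacCele16h by 0.17 and 0.84 as deposited and by -0.30 and 0.49 at the same total. SLC25A13 was past the limit as deposited at Pac16h (-0.67) and Cele16h (-0.88), where it was -0.28 and -0.23 at the same total. SLC25A12 was the 1 member of the 4 aspartate and glutamate carriers past the limit upwards with both drugs as deposited, and SLC25A22, a glutamate carrier, was below the control in all 5 treatments on both scales, within the limit. SLC25A38, the glycine carrier for haem synthesis, was -0.60 at Pac16h and -0.76 at Cele16h as deposited, and SLC25A44, a branched-chain amino acid carrier, was -0.63 at Pac16h. Both were within the limit at the same total. SLC25A15, the ornithine carrier, was -0.63 at Cele16h as deposited and -0.33 at the same total, and SLC25A29, for basic amino acids, was within the limit. SLC25A20, the acylcarnitine carrier of fatty acid oxidation, was within the limit on both scales, with 0.29 at Pac48h and 0.33 at PacCele16h as deposited and 0.48 and 0.11 at the same total. Of the iron carriers, SLC25A37 (mitoferrin-1) was lower by 0.79 at Pac16h and by 0.72 at Cele16h as deposited and within the limit at the same total. SLC25A28 (mitoferrin-2) was past the limit upwards at Cele16h at the same total (0.59), with a mean of 0.40 ± 0.91 in the control and 0.99 ± 1.63 there, and 34.4% of cells had it against 19.6%. It passed the detection limit through Cele16h alone, so nothing is read from this difference, which was 0.27 as deposited. Among members detected in at least 50% of cells of either condition, 2 rather than 3 were past the limit upwards there.

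Adding the second drug at 16 h was compared directly. Against paclitaxel alone, 24 of 37 members were past the limit upwards with both drugs as deposited (64.9% against 62.5% of all genes), and 0 downwards (against 0.0311%). Against celecoxib alone it was 25 upwards (67.6% against 66.0%) and 0 downwards (against 0.0414%). The counts at the same total were 8 upwards (21.6% against 13.0%) and 0 downwards (against 2.11%) relative to paclitaxel, and 1 upwards (2.70% against 6.94%) and 0 downwards (against 5.85%) relative to celecoxib. The median member difference was 0.98 relative to paclitaxel and 1.05 relative to celecoxib as deposited (0.80 and 0.88 over all genes), and 0.28 and 0.05 at the same total (0.12 and 0.00). The 8 members higher than with paclitaxel alone were SLC25A21 (1.02), SLC25A4 (0.80), SLC25A11 (0.71), SLC25A14 (0.71), SLC25A6 (0.69), SLC25A1 (0.68), SLC25A39 (0.62) and SLC25A16 (0.59), with ADP/ATP, citrate, oxoglutarate and glutathione carriers among them. Of these 8, SLC25A1, SLC25A11, SLC25A14 and SLC25A39 were past the limit downwards at Pac16h against the control on both scales. SLC25A21 alone of the 8 was past the limit upwards with both drugs against the control at the same total. SLC25A53 had the lowest difference relative to paclitaxel alone (-0.42), within the limit. Relative to celecoxib alone SLC25A51 (0.72) was past the limit. The lowest differences there were those of SLC25A28 (-0.55) and SLC25A39 (-0.45), within the limit. As deposited the largest differences relative to celecoxib alone were in SLC25A5 (2.52) and SLC25A3 (2.23), which at the same total were 0.45 and 0.14.

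Parts of 2 conditions carried library indices of the same block of 96 as another condition, so some differences could be taken within a block. The 31 cells of Pac48h in block 4, that of the control, had 0.98 for SLC25A21 and 0.24 for SLC25A36 at the same total. The 22 cells of Pac48h in block 2 had 0.39 and 0.73. Within block 1, the 34 cells with both drugs differed from Pac16h by 1.28 for SLC25A21 and 0.31 for SLC25A36 at the same total. Within block 3, the 25 cells with both drugs differed from Cele16h by 0.07 and 0.13 for these carriers. SLC25A21 at Pac48h was thus past the limit in block 4 and within it in block 2, and SLC25A36 the reverse. Pac16h, Cele2h, Cele16h and PacCele16h share no block with the control, and for them the block and the treatment cannot be told apart.

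Genes that work beside the carriers are given from lists chosen for their function. Of the family members under other symbols, the mitochondrial carrier homologues MTCH1 and MTCH2 and the uncoupling protein UCP2 were analysed. UCP2, which lets protons or metabolites pass the inner membrane, was lower than the control at the same total by 1.14 at Pac16h, 1.01 at Cele2h, 0.77 at Cele16h and 1.38 at PacCele16h, and was 0.01 at Pac48h. MTCH2, an outer membrane insertase, was -0.14, -0.29, -0.51, -0.89 and -0.11 in the 5 treatments, and MTCH1 was -0.74, -0.46, -0.22, -0.81 and -0.05. Of 15 carrier import genes, 5, 6, 6, 4 and 5 were past the limit downwards in the 5 treatments at the same total and 0, 0, 0, 2 and 0 upwards, with medians of -0.34, -0.43, -0.35, -0.28 and -0.45. Over all genes 13.2%, 8.08%, 10.9%, 10.1% and 7.64% were lower and 1.89%, 4.69%, 4.18%, 8.87% and 7.87% higher, with medians of -0.09, 0.00, -0.03, 0.02 and 0.02, and these lists were chosen with results known. TIMM10, a small TIM chaperone of the intermembrane space, was lower by 0.89, 1.40, 1.46, 0.82 and 1.43, and TOMM40, the pore of the outer membrane, by 1.41, 0.98, 1.15, 0.75 and 1.17. TIMM22, the channel that inserts carriers, was -1.13, -0.75, -0.91, -0.06 and -0.45. Other genes of this list were higher in some treatments. TIMM9 was -0.42, -0.31, -0.41, 0.90 and -0.01, and AGK was -0.57, -0.43, -0.31, 0.67 and 0.32. TOMM20 was 0.35, 0.54, 0.47, 0.20 and -0.05. Of 18 other inner membrane transporters, 1, 2, 2, 3 and 5 were higher and 2, 3, 2, 4 and 2 lower, with medians from -0.13 to 0.06. The 3 VDAC channels of the outer membrane, through which metabolites reach the carriers, had medians of -0.36 to -0.53, and VDAC3 was past the limit at Cele2h (-0.77).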

How the data were processed

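A2780 cells were captured on a Fluidigm C1 chip and sequenced with Smart-seq2. Of 372 labelled cells the table holds 338. According to the study's methods, the authors trimmed reads with Trim Galore, computed TPM against the GENCODE v28 transcripts (hg38) with Bowtie2 alignments and RSEM 1.3.0, normalized each cell to the most abundant of 3 spike-in RNAs, removed cells with poorly detected housekeeping genes and deposited log2 values, E = log2(N/10 + 1), for genes above the 30% detection limit. Genes detected per cell ranged from 4746 to 8499, and reads per cell are not given in the sources used here.

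From these values means, SDs over cells, differences, ratios and exact (Clopper-Pearson) 95% intervals were computed with Python 3.11.15, numpy 2.4.6, pandas 2.3.3 and scipy 1.17.1, and drawn with matplotlib 3.10.9. For the same-total scale, E-values were made linear, each cell was scaled to the median total of the control cells, and E was recomputed. All differences were taken over 9655 genes, and the scripts were tested on simulated data. With no replicate culture named for any condition, no model or p-value was used. Annotation came from GENCODE v44 (hg38) and promoters from RefSeq (GRCh38.p14), with entries for 32 members. Values of 1 member are not reported here, and it is counted in the family's counts and medians.

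Members given with values in every condition were the 5 highest in the control, those past the limit in 1 direction on both scales in a comparison with the control, and the largest rise and fall at the same total in each of 7 comparisons among members detected in at least 30% of both conditions' cells. Others named were chosen after their values were seen. The members and lists were chosen with earlier results of these data known. Alternatives were another pseudocount, ratios of linear means, a window of genes detected, other detection filters, median-ratio size factors, each index block alone, SLC25A6 with both rows summed and another common total, the last 2 chosen after seeing the data.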

Additional observations from a re-analysis of the deposited data

Results flagged for a closer look

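On the deposited scale, 17 of the 37 carriers (45.9%, against 33.8% of all genes) were past the 1.5-fold limit in opposite directions for paclitaxel at 16 h without and with celecoxib: lower in Pac16h than in the control and higher in PacCele16h than in Cele16h. The same 17 members were past it in opposite directions for celecoxib at 16 h without and with paclitaxel, as were 37.6% of all genes. Among them were SLC25A3, SLC25A4, SLC25A5 and SLC25A6 of the phosphate and ADP/ATP carriers, SLC25A1, SLC25A11 and SLC25A39, and the 2 contrasts share all 4 conditions. At the same total 0 members did so in either contrast, against 1.24% and 1.02% of all genes. Beside this stand the median totals of the cells, which relative to the control were lower by 0.99 (log2) at Pac16h and 1.52 at Cele16h and higher by 0.49 at PacCele16h. The difference between the contrasts was not tested, as no replicate culture is named.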

How the results depend on the processing

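No paired analysis was possible because no replicate culture or replicate number is named for any condition. Leaving out a replicate was likewise not possible, and reads per cell, which limit the low members, are unknown. With no detection filter, a filter at 50% of cells or both SLC25A6 rows summed, every count stayed within 1.5 times its value. Counts below are of SLC25 members past the limit that moved by over 1.5 times, and the cause was not tested. With a pseudocount of 1 in place of 10, counts as deposited were 1 upwards at Pac16h (all genes 1.39%) and 2 upwards and 17 downwards at Pac48h (4.79% and 43.9%). Further counts were 22 downwards at Cele2h (44.5%), 2 upwards at Cele16h (2.38%) and 4 downwards at PacCele16h (8.98%). At the same total they were 2 upwards and 19 downwards at Pac16h, 2 and 11 at Pac48h, 10 downwards at Cele2h, 5 and 13 at Cele16h, 5 and 9 at PacCele16h, 16 and 3 for both drugs against Pac16h, and 7 and 3 against Cele16h (all genes 6.78% to 16.4% upwards and 20.1% to 31.3% downwards against the control, 19.0% to 28.2% and 7.32% to 13.4% against a single drug). With ratios of linear means, counts as deposited were 2 upwards and 31 downwards at Pac16h (all genes 3.14% and 59.7%) and 18 downwards at Pac48h (44.0%). The counts were 2 and 19 at Cele2h (7.33% and 39.1%) and 2 and 32 at Cele16h (2.74% and 76.0%). With both drugs the counts were 29 upwards against the control (72.2%), 1 downwards against Pac16h (0.321%) and 1 downwards against Cele16h (0.176%). Those at the same total were 5 upwards at Pac16h, 6 and 4 at Pac48h, 6 upwards at Cele2h, 8 upwards at Cele16h, 7 and 4 at PacCele16h, 14 and 2 against Pac16h, and 2 and 5 against Cele16h (all genes 17.0% to 35.3% and 8.4% to 10.5% against the control, 9.14% to 24.0% and 8.75% to 21.5% against a single drug). Linear means also turned SLC25A15 at PacCele16h against the control (0.68, from -0.05) and SLC25A28 against Cele16h (0.74, from -0.05), as deposited. In cells with 5500 to 7000 genes, 1 was lower at PacCele16h as deposited (all genes 2.35%). At the same total, 10 (27.0%) were lower at Pac16h (all genes 13.1%), and 2 were higher and 1 lower against Cele16h (6.83% and 7.45%). Median-ratio scaling over 413 genes gave 1 lower at PacCele16h and 1 lower against Cele16h (all genes 6.25% and 7.87%). A common total at the median of all cells gave 1 lower each at Pac48h, Cele2h, Cele16h and PacCele16h (all genes 5.78% to 8.12%). Pac48h cells of block 2 alone gave 2 upwards and 4 downwards at the same total (all genes 5.8% and 11.8%). Those of block 4 alone gave 1 and 6 as deposited (all genes 1.76% and 22.5%). PacCele16h cells of block 1 alone gave 3 upwards against Cele16h at the same total (all genes 8.63%). Those of block 3 alone gave 1 downwards against Pac16h and 2 and 3 against Cele16h (all genes 7.99% upwards and 3.65% to 7.69% downwards). SLC25A21 at the same total was past the limit under 4 of 5 alternatives at Pac16h (0.58 to 1.06), 6 of 7 at Pac48h (0.39 to 1.15) and all at Cele2h, Cele16h and PacCele16h, and SLC25A36 under all at Cele2h, Cele16h and PacCele16h.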
